A study of Mus musculus with 18 samples.

Results

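Alternative 3′ splice sites (Alt3) are introns with a single donor and more than 1 acceptor, so that the exon that follows starts at different bases. The events described here have exactly 2 acceptors, separated by any distance other than 3 nt, and were quantified by *vast-tools* in each of the 18 RNA-seq libraries of the series. Of 661941 splicing events in the deposited table, 368707 had a coverage score other than N in all 18 libraries, and 23930 of these, in 7670 genes, were 2-acceptor events of this kind. The acceptors lay 1 to 498 nt apart, with a median of 22 nt, and 8305 events (34.7%) had a distance divisible by 3, which keeps the reading frame where the segment is coding. The percent spliced in (PSI) of an event is the share of its junction reads, corrected for mappability, that join the donor to the upstream acceptor, so a high PSI stands for the longer exon and a low PSI for the shorter exon. Each library held between 10993565 and 13250069 raw junction reads on these events, with a median of 201 to 252 reads per event, and the least covered event of any library had 15.

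The libraries came from primary mouse embryonic fibroblasts (MEFs) of the genotype Collagen-OKSM, M2rtta+, in which doxycycline switches on OCT4, KLF4, SOX2 and MYC, and all groups carried these alleles. There were 9 groups of 2 libraries each in a pair of datasets. The knockdown dataset held uninfected MEFs at day 0 (NI), and at day 12 of doxycycline cells infected with lentiviral shRNAs: a scrambled control (shSCR), shCPSF3#1 and shCPSF3#2 against *Cpsf3*, and shUL1#1 and shUL1#2 against *Hnrnpul1*. The overexpression dataset held its own uninfected MEFs at day 0 (NI), and at day 12 cells infected with the retroviral vector without insert (Empty) or with T7-tagged TIA1 (T7-TIA1). Infected cells were sorted for GFP on day 2 and grown on irradiated feeder MEFs, so day 12 RNA came from a mixture of cells. In such bulk RNA, a change in the share of a cell type and a change of acceptor choice inside the cells cannot be told apart. Nothing in the labels says that the 2 libraries of a group came from separate cultures, so the p-values below measure only the spread between these libraries.

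At a 3′ splice site, the branch point, the polypyrimidine tract and the terminal AG dinucleotide are recognised in turn by SF1, by the large subunit of U2AF and by its small subunit, and U2 snRNP then binds the branch point. The AG is joined to the donor in the second step of splicing, in which factors such as SLU7 and PRPF18 act. Where 2 AGs lie close together they share a branch point and compete in that second step, whereas acceptors far apart have tracts and branch points of their own. CPSF3 is the endonuclease that cleaves pre-mRNA 3′ ends, hnRNP UL1 (*Hnrnpul1*) is an RNA-binding protein of the hnRNP U family, and TIA1 binds U-rich RNA and is known for promoting the use of weak donor sites.

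The segments between the acceptors are printed here for members on which the results below turn, because the segment is the sequence that the choice adds to or removes from the mRNA. Each line gives 30 bases of the longer mRNA, 5′ to 3′ on the transcribed strand, in mm10 (GRCm38) coordinates and read from GENCODE M21 transcripts. The capitals are the segment between the acceptors, which stays in the mRNA only when the upstream acceptor is used, and its last letters are the AG of the downstream acceptor. The lower case is the exon common to both mRNAs.
*Grk6*, 2 nt, chr13:55459782-55459811, plus strand: AGgattgctgtgggaactgcagcgacagtg
*Eif3h*, 5 nt, chr15:51799330-51799359, minus strand: TACAGtatcagatggagatgatgcgcagcc
*Ryk*, 9 nt, chr9:102885994-102886023, plus strand: GCTCCTCAGgttatcctaccttgcggatag
*Smurf1*, 9 nt, chr5:144880680-144880709, minus strand: GCTCTACAGgcgcggcagggccccggctgt
*Dgcr2*, 9 nt, chr16:17858550-17858579, minus strand: GCTTCCTAGggaaatgcccaagtgggtggc
*Ptpn11*, 12 nt, chr5:121144667-121144696, minus strand: GCTCTACTCCAGggaaacacagagagaacc
*Celf1*, 12 nt, chr2:91006620-91006649, plus strand: CTTTATTTGCAGctcctacagcagactgcc
*Hcfc1r1*, 12 nt, chr17:23674535-23674564, plus strand: TCTTTCCCCCAGggaacctttgcacaagca
*Hgf*, 15 nt, chr5:16572492-16572521, plus strand: CTTTTTGCCTTCGAGctatcgcggtaaaga
*Stau1*, 18 nt, chr2:166955101-166955130, minus strand: TCTTTCCTTCTGACACAGgtggcccgggag

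Some libraries stood apart before any comparison was made. At 14 of the events (0.0585%), both shSCR libraries lay at least 5 PSI outside the range of the other 16 libraries, against 3 events for NI of the knockdown dataset and at most 1 for any other group, and over all 368707 covered events shSCR had 403 such cases (0.109%) and this NI group 133. shSCR is the control of both knockdowns and the end point of reprogramming in its dataset, so it enters each of those comparisons. The 12 libraries of the knockdown dataset and the 6 of the overexpression dataset failed to overlap by at least 5 PSI at 2 of the 23930 events, *Hcfc1r1* and *Zmat2*, and at 24 of all events. *Hcfc1r1*, which encodes a binding partner of the cell cycle cofactor HCFC1, had PSI values of 39.3 to 69.2% in the knockdown dataset and of 99.6 to 99.9% in the overexpression dataset, with at least 1363 reads in every library. *Zmat2*, an event of 5 nt that was chosen after its values were seen, had 73.6 to 82.3% in the knockdown dataset and 46.6 to 52.1% in the overexpression dataset, with at least 359 reads. The uninfected day 0 cells differed in the same way, so these 2 events separated the datasets and not the infections. Over all events, NI against NI of the datasets called 3 of 7299 tested events, beside 0.0192% of all tested in a fit of the 18 libraries.

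Most events used a single acceptor in these cells. The mean PSI over the 18 libraries was below 5% at 8862 events (37.0%), where the downstream acceptor was used, and above 95% at 14107 (59.0%), where the upstream acceptor was used. Both acceptors were used, with a mean PSI of 5 to 95%, at 961 events (4.02%) in 894 genes, of which 474 had a mean PSI of 10 to 90% and 189 of 25 to 75%. The annotation followed this closely. Where GENCODE M21 listed both acceptors, 31.2% of 1592 events used both, against 2.69% of the 13811 events with the upstream acceptor alone annotated and 1.01% of the 8493 with the downstream acceptor alone. The segment was coding at 14641 events, of which 715 used both acceptors, and lay in a 5′ UTR at 580, of which 103 did.

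Among the listed events, the acceptor that was used changed with the distance class. At 1 to 2 nt, 91.5% of 1108 events used the upstream acceptor and 2.62% the downstream acceptor, and at 4 to 6 nt (4239 events) these shares were 91.2% and 1.63%. At 7 to 12 nt the upstream acceptor was used at 94.0% of 2981 events. From 13 to 30 nt the order turned, and 64.5% of 6520 events used the downstream acceptor against 32.8% for the upstream acceptor. At 31 to 100 nt the upstream acceptor was again the more frequent, at 55.3% of 6342 events, while the downstream acceptor took 65.2% of the 2383 events beyond 100 and up to 300 nt and 86.0% of the 357 beyond 300 nt. These shares count listed events, and a listed acceptor need not be one that any cell type uses often. The share of events with a coding segment moved in step with use of the upstream acceptor. It was 91.5% at 7 to 12 nt, 35.2% at 13 to 30 nt and 58.3% at 31 to 100 nt. Between 100 and 300 nt it was 33.8%, and beyond 300 nt 13.2%. Distance was not separated from which acceptor the annotation lists.

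Use of both acceptors was most frequent at the shortest distances, at 5.87% of events of 1 to 2 nt and 7.17% of those of 4 to 6 nt, and least frequent at 7 to 12 nt, at 1.78%. Among events that used both, the median PSI fell from 93.3% at 1 to 2 nt and 90.2% at 4 to 6 nt through 67.7% at 7 to 12 nt to 36.0% at 13 to 30 nt, and then rose to 62.1% at 31 to 100 nt, 72.7% between 100 and 300 nt and 84.9% beyond 300 nt (7 events). The 284 events with a distance divisible by 3 that used both acceptors had a median PSI of 59.2%, and the 677 others one of 87.3%. This order of the distance classes held in each of the 9 groups from 1 to 30 nt: the group medians were 92.4 to 93.4% at 1 to 2 nt, 89.1 to 90.6% at 4 to 6 nt, 64.6 to 76.7% at 7 to 12 nt and 34.6 to 40.4% at 13 to 30 nt. Over all events that used both acceptors, the group medians differed by little, from 82.5 to 83.9%, while the median difference between the 2 libraries of a group was 2.63 to 3.14 PSI.

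**Figure D1:**
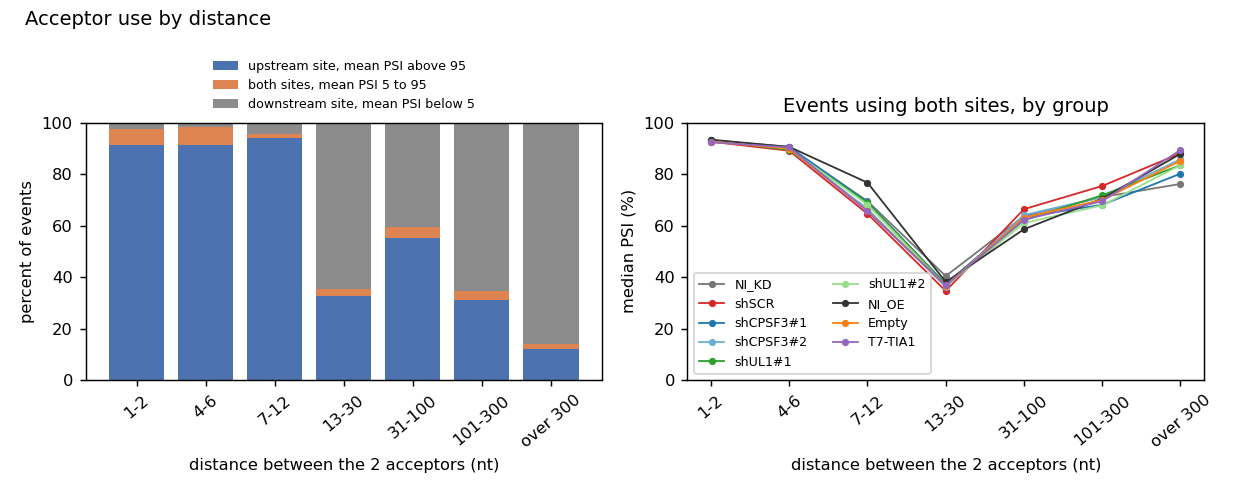
Acceptor use against the distance between the acceptors (nt), as the percentage of events that used the upstream, the downstream or both acceptors in each distance class, and the median PSI (percent) of events that used both, in each of the 9 groups. The upstream acceptor took 94.0% of events at 7 to 12 nt and 32.8% at 13 to 30 nt, and the group medians spanned 92.4 to 93.4% at 1 to 2 nt, 64.6 to 76.7% at 7 to 12 nt and 76.2 to 89.4% beyond 300 nt.

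The bases before the downstream acceptor were read from the segments, 16687 of which lay in transcripts. Of these, 99.9% ended in AG. For distances of at least 4 nt, the base before this AG was C at 68.2% of events that used both acceptors and at 62.1% of those that used the upstream acceptor alone, and A at 13.2% and 20.2%. Where the distance allowed it, the 20 nt before the AG held a median of 70.0% pyrimidines at 399 events that used both and of 65.0% at 5233 that used the upstream acceptor alone. The same reading is void for events that used the downstream acceptor alone, since their segment is mostly intronic and a transcript holds it in too few cases. These are descriptions of the listed events, and the classes also differ in distance.

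In each distance class the best covered event with a mean PSI of 25 to 75% was examined library by library. *Hcfc1r1*, given above, was that event at 7 to 12 nt, and *Grk6*, given with reprogramming, at 1 to 2 nt. *Stau1*, which encodes the double-stranded RNA-binding protein Staufen, had an 18-nt segment with PSI values from 39.6 to 49.2% over the 18 libraries. *Tfpi*, encoding an inhibitor of coagulation, had acceptors 387 nt apart and values from 50.8 to 67.3%. *Aen*, encoding a nuclease induced by p53, had a 114-nt segment and values from 31 to 42.8%. At these 3 events none of the 5 comparisons passed the read-level test described next. *Dcxr*, encoding a carbonyl reductase, held values of 45.8 to 50.2% in the shSCR, Empty and both NI groups and of 54.5 to 59.5% in the shCPSF3 libraries at its 41-nt segment, with an adjusted p of 0.0811 for CPSF3 knockdown. Its values in the shUL1 and T7-TIA1 libraries are not given here, so the difference is not shown to be particular to *Cpsf3*. *0610010K14Rik*, with a 4-nt segment, had 71.6 and 74.6% in NI and 61.6 and 63.6% in shSCR, a fall that passed the test (∆PSI -10.5, adjusted p = 0.0261).

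Changes between groups were read in 2 ways. The pairwise rule calls an event differentially spliced where the mean PSI differs by at least 10 and all libraries of the 2 arms lie at least 5 PSI apart, with no test. The study used this rule between samples of a time course and, in the present series, between day 12 and day 0 of each condition. It was applied here to all 5 comparisons, with the 4 libraries of both shRNAs of a target as 1 arm. The study itself defined events dependent on CPSF3, hnRNP UL1 or TIA1 differently, from the change since day 0 and, for the knockdowns, in each shRNA, and that definition was not used here. A read-level test, the limma fit to the log2 ratio of upstream to downstream reads over all events of the table, calls an event at a Benjamini-Hochberg adjusted p under 0.05, whatever the size. By the rule, 182 of the 23930 events in 180 genes changed in at least 1 of the 5 comparisons. Of these, 173 used both acceptors on average, which a difference of at least 10 PSI makes likely beforehand. Both acceptors were annotated at 117, beside 1592 of all 23930 events. In coding sequence lay 120, beside 14641 of all, and 61 had a distance divisible by 3, beside 8305 of all (34.7%). These traits were not tested, and the share of all covered events past the rule is given below for each comparison.

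Reprogramming was read from day 12 control cells against uninfected day 0 cells, once in each dataset. In the knockdown dataset, 121 events passed the rule, 57 with a higher and 64 with a lower PSI at day 12, which is 0.506% of the events against 1.15% of all covered events of the table. The read-level test called 179 of 5670 tested events (95 higher, 84 lower), or 3.16% against 6.05% of all tested, and 67 of them changed by at least 10 PSI. In the overexpression dataset 56 events passed the rule (32 higher, 24 lower), 0.234% against 0.601% of all covered events, and 17 of 3811 passed the test (8 higher, 9 lower), 0.446% against 1.22% of all tested. A replicate block in the fit gave more calls by the test in this dataset, as given in the closing paragraph. In both datasets and by either reading the share called lay below that of the table, which also holds other kinds of event, and this difference was not tested. In the same comparisons the rule called 2.57% and 0.481% of the 1870 2-acceptor events of 3 nt, and 0.872% and 0.571% of the 18918 2-donor events, with no test of the differences between these kinds. Leaving out a library at a time gave between 39 (without NI replicate 2) and 120 (without shSCR replicate 2) calls by the test in the knockdown dataset, and between 2 (without NI replicate 1) and 26 (without Empty replicate 2) in the other.

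*Eif3h*, which encodes the H subunit of translation initiation factor eIF3, gave the largest fall of the knockdown dataset. The upstream acceptor of its 5-nt pair was used at 70.4 and 67.6% in NI of the knockdown dataset and at 14.9 and 0% in shSCR, and at 76.3 and 45.2% in NI and 32.8 and 18% in Empty of the overexpression dataset. Day 0 and day 12 did not overlap, since no day 12 library of any group exceeded 34.6% and no day 0 library lay below 45.2%. The ∆PSI was -61.5 in the knockdown dataset (log2 ratio -3.74 ± 0.58 SE, adjusted p = 8.78e-04) and -35.3 in the other, where it did not pass the test (adjusted p = 0.159). The event rests on 17 to 50 reads per library, and the value of 0% stands for 0 of 22 reads, which allows a share of up to 13.6% by counting error alone. Only the upstream acceptor was annotated.

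*Gpc2*, encoding a cell surface heparan sulfate proteoglycan, passed the test in both datasets. Its 83-nt coding segment was kept at 73.5 and 67.3% in NI and at 28.4 and 34.0% in shSCR, and at 58.9 and 55.6% in NI and 27.5 and 29.6% in Empty. Every day 12 library of the 7 infected groups lay between 20.4 and 35.0%, below all day 0 libraries. The falls were -39.2 PSI (adjusted p = 4.35e-04) and -28.7 PSI (adjusted p = 0.00866). *Atxn2l*, encoding an RNA-binding protein of stress granules, fell likewise at a 123-nt segment, from 84.1 and 89.7% to 70.3 and 53.6% in the knockdown dataset and from 88.7 and 84.0% to 62.7 and 61.8% in the overexpression dataset. The arms did not overlap in either dataset, with ∆PSI of -24.9 (adjusted p = 0.00333) and -24.1 (adjusted p = 0.0180), but the first fell by 16.5 PSI without shSCR replicate 2 and then missed the threshold.

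*Grk6*, encoding a kinase of G protein-coupled receptors, rose in both datasets. Its acceptors lie only 2 nt apart, so that the segment AG printed above is all that the choice adds, and the upstream acceptor was used at 53.2 and 47.8% in NI and at 84.3 and 82.3% in shSCR, and at 49.7 and 53.6% in NI and 75.7 and 70.8% in Empty. The day 0 libraries of both datasets lay below every day 12 library, the lowest of which was 55.0% in shCPSF3#1. The rises were 32.8 PSI (log2 ratio 2.27 ± 0.22 SE, adjusted p = 1.01e-05) and 21.6 PSI (adjusted p = 0.00997), on 296 to 793 reads per library. *Mpp5*, encoding the polarity scaffold PALS1, had the largest rise of the overexpression dataset. Its 237-nt coding segment was kept at 62.9 and 58.2% in NI and at 94.1 and 94.1% in Empty, and at 75.8 and 76.8% in NI and 89.9 and 92.5% in shSCR. The arms were separate in both datasets, with rises of 33.5 PSI (adjusted p = 7.01e-04) and 14.9 PSI (adjusted p = 0.0111), and the first held with any library left out.

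Among the other events named in the knockdown dataset, *Cenpc1*, which encodes the inner centromere protein CENP-C, had the largest rise, from 45.4 and 34.1% to 85.6 and 84.6% (adjusted p = 9.09e-04) at acceptors 343 nt apart that the annotation does not list. Its values were 33.1 and 30.6% in NI and 54.8 and 47.1% in Empty, above day 0 but far below shSCR. *Elf2*, encoding an ETS transcription factor, rose from 16.7 and 15.8% to 46.0 and 42.6% at a 36-nt coding segment (∆PSI 28.0, adjusted p = 7.63e-05), while NI of the other dataset (18.2 and 30.3%) overlapped Empty (29.8 and 33.6%). *Fam45a*, with a 20-nt segment in the 5′ UTR, rose from 7.91 and 8.33% to 39.6 and 33.8% (adjusted p = 1.75e-04) and from 5.71 and 11.5% to 24.8 and 20.7%, where the adjusted p was 0.0539. *Glrx3*, encoding a glutaredoxin of iron handling, rose from 42.2 and 38.6% to 70.8 and 72.7% (adjusted p = 0.0106), and *Dgke*, encoding a diacylglycerol kinase, fell at 4 nt from 93.8 and 94.3% to 71.2 and 72.7% (adjusted p = 0.0225). Both moved the same way in the overexpression dataset, by 24.1 and -20.7 PSI, without passing the test there (adjusted p = 0.0988 and 0.182). Of the 20 events named by size in this comparison, 7 passed with every library left out in turn: *Grk6*, *Elf2*, *Gpc2*, *Eif3h*, *Cenpc1*, *Chchd7* and *Fam45a*. *Ctif* fell by 21.7 PSI and, without shSCR replicate 2, fell by 13.9.

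In the overexpression dataset *Celf1*, encoding an RNA-binding regulator of splicing, fell at a 12-nt coding segment from 78.2 and 80.3% to 62.5 and 55.2% (∆PSI -20.4, adjusted p = 0.00900). In the knockdown dataset its NI libraries had 79.9 and 77.6% and its shSCR libraries 74.4 and 66.6%, with no call (adjusted p = 0.371). *Ing4*, encoding a reader of histone methylation, fell by about the same amount in both datasets, from 97.6 and 95.6% to 84.1 and 88.9% (adjusted p = 0.0267) and from 92.9 and 96.3% to 85.1 and 84.2% (adjusted p = 0.00920). *Bmp1*, encoding the procollagen C-proteinase, rose from 12.0 and 9.01% to 21 and 21% (adjusted p = 0.0197), and by 8.07 PSI in the knockdown dataset (adjusted p = 0.0346). *Bod1l* fell by 23.7 PSI at 9 nt (adjusted p = 0.0317). *Mier2* fell by 14.8 PSI at 174 nt (adjusted p = 0.0440) and fell by 9.83 without NI replicate 1. Of the 9 events named in this dataset, *Mpp5* alone passed with every library left out in turn.

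**Figure D2:**
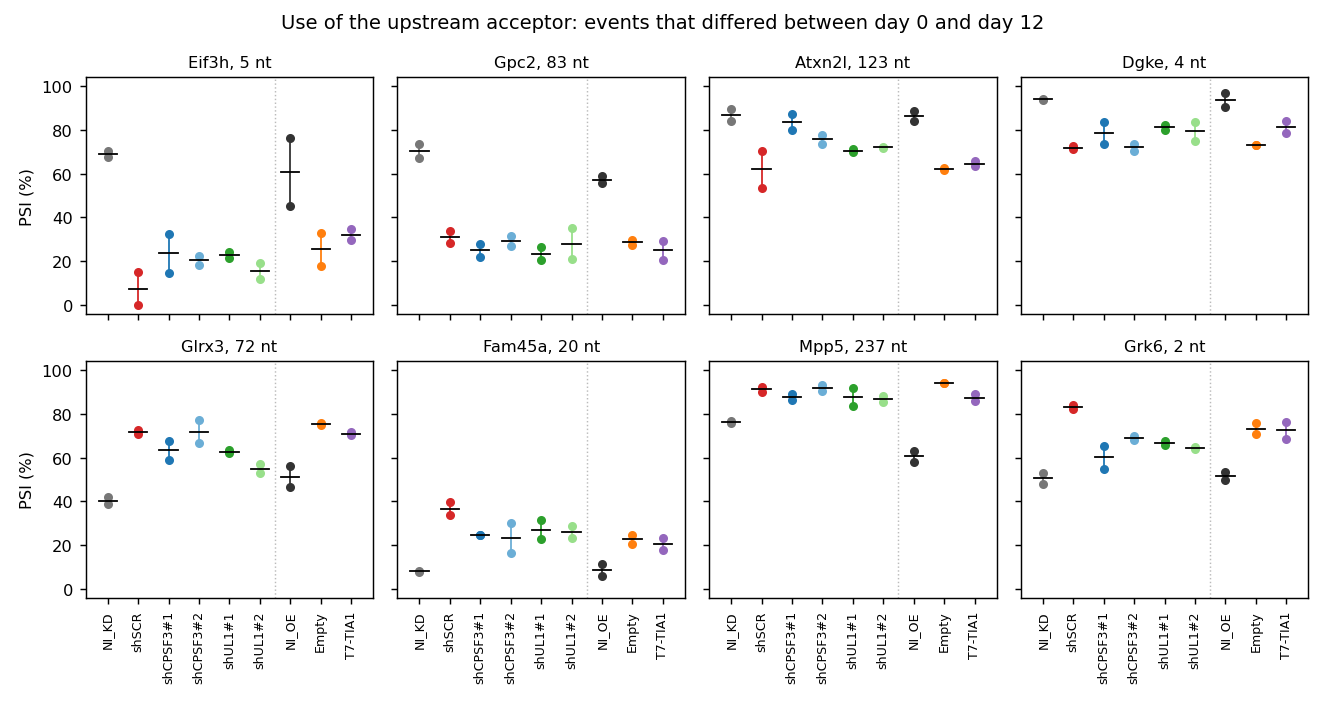
PSI (percent) of 8 events in each of the 18 libraries, by group, where NI_KD and NI_OE are the uninfected cells of the knockdown and overexpression datasets, with a bar at each group mean and a line joining its libraries. NI is separate from shSCR, and the other NI group from Empty, in all 8, and at *Eif3h* no day 12 library exceeded 34.6%.

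The datasets share no library in their reprogramming comparisons, so each was read in the other. Of the 121 events past the rule in the knockdown dataset, 93 (76.9%) had a difference of the same sign in the overexpression dataset, and the median difference in that direction was 4.81 PSI. The same share over all events called there was 84.7%. Of the 56 events past the rule in the overexpression dataset, 42 (75%) had the same sign in the knockdown dataset, against 86.3% over all events. Past the rule in both were 26 events, which is 21.5% of the 121 and 46.4% of the 56, and 25 of them moved in the same direction. The exception was *Nsd1*, a histone methyltransferase gene, with a ∆PSI of -17.0 in the knockdown dataset and of 15.2 in the other at a 4-nt segment, neither of which passed the test (adjusted p = 0.183 and 0.260). A test of the difference between the changes of the 2 datasets, in a fit of all 18 libraries, called 0 of 7299 events by limma, with 500 at an unadjusted p under 0.05, beside 0.0231% of all tested.

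**Figure D3:**
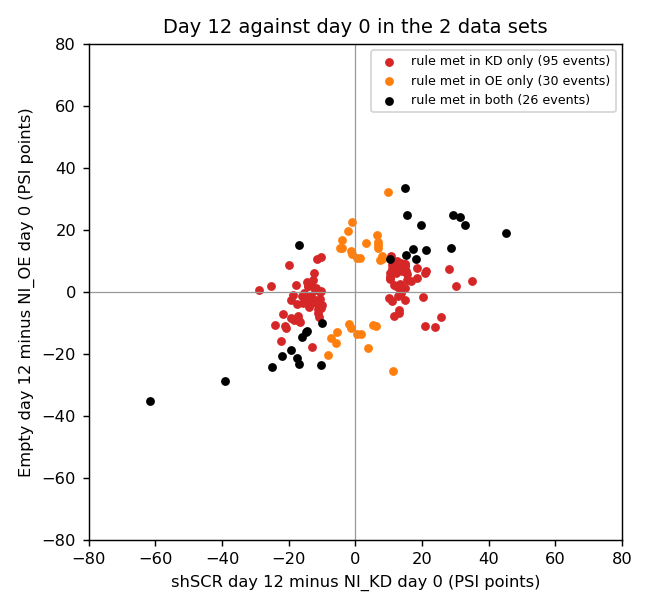
Day 12 minus day 0 difference of mean PSI in the overexpression dataset against that in the knockdown dataset, one point per event past the rule in the knockdown dataset (NI_KD), the overexpression dataset (NI_OE) or both. *Eif3h*, *Gpc2* and *Atxn2l* lie in the lower left quadrant and *Grk6* and *Mpp5* in the upper right, and 25 of the 26 events past the rule in both lie in those quadrants.

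The direction of the events past the rule was counted by distance, with no test. In the knockdown dataset, of 29 events of 4 to 6 nt past the rule, 5 rose and the rest fell, *Eif3h*, *Dgke*, *Rpl29* and *Zfp74* among the named ones. Of 11 events of 7 to 12 nt, 2 rose. At 31 to 100 nt, 22 of 35 rose and between 100 and 300 nt 13 of 19. In the overexpression dataset 6 of 11 rose at 4 to 6 nt, 1 of 3 at 7 to 12 nt, 9 of 18 at 31 to 100 nt and 5 of 9 between 100 and 300 nt. Over all 53 events of 7 to 12 nt that used both acceptors, 18 were higher and 35 lower in shSCR than in NI, with a median difference of -2.59 PSI, while in the overexpression dataset 22 were higher and 31 lower, with a median of -0.880. Over all 961 events that used both, 453 were higher than in NI in the knockdown dataset and 430 in the overexpression dataset. *Rpl29*, which encodes a ribosomal protein, fell by 29 PSI at 6 nt, but its reads are corrected very differently at the 2 acceptors, and in the raw reads it fell by 11.1.

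Summed marker expression differed between the arms of these comparisons. In bulk RNA such sums cannot tell a change in the shares of cell types from a change of expression inside the cells. Fibroblast markers, 11 of 12 in the filtered expression tables, summed to 20832 to 24453 scaled CPM in NI and 12570 to 15036 in shSCR, and to 22487 to 51606 in NI and 11683 to 14026 in Empty. Of 11 epithelial markers, 2 were in the table of the knockdown dataset, with sums of 16 to 20.4 in NI and 298 to 539 in shSCR, and none in that of the other dataset. None of the 9 pluripotency markers was in either filtered table. The part of the cell mixture in the changes of acceptor use was not tested.

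The knockdown of *Cpsf3* was read from the mean of 4 libraries with either shRNA against shSCR, and that of *Hnrnpul1* in the same way against the same 2 shSCR libraries. *Cpsf3* itself was at 86.7 and 118 scaled CPM in shSCR and at 38.6, 50, 42.4 and 77.1 in the knockdown libraries, a fall by 1.00 on the log2 scale (limma, adjusted p = 0.0218). *Hnrnpul1* was at 156 and 185 in shSCR and at 55.7, 85.8, 38.7 and 63.7 in its knockdown libraries, a fall by 1.52 (adjusted p = 0.0110). No knockdown library reached the lowest shSCR value of its target.

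With *Cpsf3* knocked down, 39 events passed the rule, 20 with more and 19 with less use of the upstream acceptor, which is 0.163% against 0.389% of all covered events. The test called 100 of 5670 events (59 higher, 41 lower), 1.76% against 3.26% of all tested, and 28 changed by at least 10 PSI. With *Hnrnpul1* knocked down, 35 events passed the rule (16 higher, 19 lower), 0.146% against 0.328%, and 65 passed the test (30 higher, 35 lower), 1.15% against 1.68%, of which 19 changed by at least 10 PSI. In both knockdowns the share called lay below that of the table, a difference that was not tested. The direct contrast between the knockdowns, which does not use shSCR, called 0 of 5670 events by limma, with 383 at an unadjusted p under 0.05, beside 0.00326% of all tested. Without shSCR replicate 1 the calls by the test dropped to 26 for CPSF3 and 11 for UL1, and the other libraries left out in turn gave 46 to 79 and 26 to 44.

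At many of the called events both shSCR libraries lay apart from all other libraries. Of the 28 events called by at least 10 PSI for CPSF3, 19 had both shSCR libraries outside the range of all other 16 libraries of the series, day 0 and overexpression libraries included, and of the 19 for UL1, 16 did. These events were chosen for a difference of at least 10 PSI from shSCR, which itself favours shSCR lying apart. The counts above and the distances from shSCR that follow therefore restate that choice in part and are given as a description. The same counts for called events of all kinds are not given here. Over the 28 events, the knockdown mean differed from shSCR by a median of 14.8 PSI, from Empty by 4.14 and from NI by 4.29, while shSCR differed from Empty by 11.6. Over the 19 events of UL1, the medians were 15.3, 1.99 and 2.97, and shSCR differed from Empty by 12.7. With Empty in place of shSCR, in a fit of all 18 libraries, 13 of 7299 events were called for CPSF3 (9 higher, 4 lower) beside 0.331% of all tested, 12 for UL1 (6 higher, 6 lower) beside 0.183%, and 10 for shSCR against Empty beside 0.167%. Empty cells carry another vector and belong to the other dataset. Whether shSCR or the other groups departed from what these cells do without any virus cannot be told apart, since no uninfected cells of day 12 were analysed here.

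*Ptpn11*, encoding the tyrosine phosphatase SHP2, is an example with a narrow spread. The upstream acceptor of its 12-nt pair was used at 30.8 and 30.7% in shSCR, at 47.1, 40.9, 46.1 and 41.5% with *Cpsf3* and 45.0, 43.7, 41.7 and 43.8% with *Hnrnpul1* knocked down, at 47.3, 43.6, 44.1 and 48.2% in the day 0 libraries, at 44.9 and 43.9% in Empty and at 42.4 and 45.0% in T7-TIA1. The shSCR libraries lay below a band of 40.9 to 48.2% that held the 16 others. The ∆PSI against shSCR was 13.2 for CPSF3 (log2 ratio 0.81 ± 0.17 SE, adjusted p = 0.0156) and 12.8 for UL1 (0.79 ± 0.17 SE, adjusted p = 0.0274), and against Empty the adjusted p was 0.961 and 0.934. Without either shSCR library the adjusted p was no longer under 0.05 in either knockdown.

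*Ryk*, encoding a Wnt receptor related to tyrosine kinases, *Smurf1*, encoding a ubiquitin ligase of BMP signalling, and *Dgcr2*, encoding a transmembrane protein, each have acceptors 9 nt apart in coding sequence and behaved alike. *Ryk* had 39.4 and 52.4% in shSCR and 54.8 to 64.1% in the other 16 libraries, *Smurf1* 65.4 and 68.6% against 77 to 84.1%, and *Dgcr2* 53.2 and 54.3% against 64.3 to 70.4%. All 3 rose in both knockdowns, *Ryk* by 17.2 and 15 PSI (adjusted p = 0.00568 and 0.0205), *Smurf1* by 14.2 and 15.3 PSI (adjusted p = 0.00384 and 0.00389) and *Dgcr2* by 14 and 12.9 PSI (adjusted p = 0.0155 and 0.0359), for CPSF3 and UL1 in that order. The libraries of *Ryk* in shSCR differed widely, and without replicate 1 its rises were 10.7 and 8.52 PSI. Without that library none of the 3 passed the test in either knockdown.

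All 6 events of 7 to 12 nt past the rule in CPSF3 rose, and so did all 6 past it in UL1. The 2 comparisons share the shSCR libraries and the 6 genes were *Ryk*, *Smurf1*, *Dgcr2*, *Ptpn11*, *Banp* and *Gzf1* in each. The rule holds no test, and the test called 5 of them for CPSF3 and 4 for UL1. *Banp* gave an adjusted p of 0.0891 and 0.130, and *Gzf1* one of 0.0498 and 0.0944. At all 6 the shSCR libraries lay below the other 16, at *Banp* with 41.2 and 42.0% against 46.8 to 61.4% and at *Gzf1*, encoding a zinc finger repressor, with 79.4 and 85.4% against 87.6 to 98.2%. That shSCR lay below the knockdown libraries was fixed by the rule, so only the place of the day 0 and overexpression libraries was free. Over all 53 events of this distance that used both acceptors, 39 were higher and 14 lower with *Cpsf3* knocked down (median 1.89 PSI), and 34 higher and 19 lower with *Hnrnpul1* knocked down (median 2.57 PSI), while over all 961 events that used both 525 and 478 were higher. Of the 6 segments, 4 begin with GCT, as can be seen above for *Ryk*, *Smurf1*, *Dgcr2* and *Ptpn11*. This start was noticed in these sequences and searched at the first 3 bases on the transcribed strand only. It was found at 82 of 2875 readable segments of 7 to 12 nt (2.85%) and at 5 of 50 in which both acceptors were used. Both counts include these 4.

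Other events both rose and fell. *Top2a*, encoding DNA topoisomerase II alpha, has acceptors 88 nt apart in its 3′ UTR, used at 70.5 and 73.4% in shSCR and at 82.3 to 90.2% in the other 16 libraries. It rose by 15.3 PSI for CPSF3 (adjusted p = 4.75e-04) and 11.9 PSI for UL1 (adjusted p = 0.00561), and shSCR against Empty passed as well (adjusted p = 0.0137). *Cenpc1* fell by 37.6 and 31.1 PSI (adjusted p = 0.00125 and 0.00650) from 85.6 and 84.6% in shSCR to between 37.0 and 63.6%. *Elf2* fell by 18.9 and 14.1 PSI (adjusted p = 0.00220 and 0.0261), and *Grk6* by 18.8 and 17.7 PSI (adjusted p = 6.83e-04 and 0.00154).

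*Appl2*, encoding an adaptor of endosomes, fell at a 214-nt coding segment from 83.6 and 88.1% in shSCR to between 62.3 and 72.9% in the 8 knockdown libraries, by 18.4 and 17.8 PSI (adjusted p = 0.00301 and 0.00574). *Ppcdc*, encoding an enzyme of coenzyme A synthesis, fell at 218 nt from 90.5 and 93.9% to between 68.3 and 79.2% with *Cpsf3* knocked down (-20.4 PSI, adjusted p = 4.75e-04), and it was also below Empty (adjusted p = 0.0470). With *Hnrnpul1* knocked down it held 76.4 to 87.5% (-11.5 PSI, adjusted p = 0.0137), and its adjusted p against Empty was 0.462. *Prdx1*, encoding a peroxiredoxin, fell in its 5′ UTR from 76.7 and 84.6% to between 32.1 and 60.0% for CPSF3 (-35.4 PSI, adjusted p = 0.00974) and gave no call for UL1 (-20.6 PSI, adjusted p = 0.136). *Nxpe3*, *Lrrc28* and *Hgf*, which encodes the ligand of the MET receptor, fell in both knockdowns by 17.8 to 23.7 PSI. In the segment of *Hgf* printed above, the AG of the downstream acceptor follows a G.

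At *Cep170b*, *Ing4*, *Atxn2l*, *Brd3*, *Snapc4*, *Nsd3* and *Rpl29* the shSCR libraries did not lie outside all others. *Cep170b*, encoding a centrosomal protein, had 74.8 and 74.6% in shSCR, 65.6 and 67.0% in Empty and 81.5, 83.9, 81.9 and 61.5% at day 0, and held 50.5 to 66.3% in the knockdown libraries (∆PSI -12.5 and -16.1, adjusted p = 0.0161 and 0.00602). *Ing4* rose by 9.39 and 8.94 PSI (adjusted p = 0.00142 and 0.00459), to between 92.8 and 95.9%, near its day 0 values, and against Empty the test gave an adjusted p of 0.0286 in the CPSF3 and 0.0621 in the UL1 knockdown. *Atxn2l* rose by 17.6 PSI for CPSF3 (adjusted p = 0.0458) but by 9.27 without shSCR replicate 2. *Brd3*, *Snapc4*, *Nsd3*, *Irak1* and *Rpl29* are called on corrected reads whose weights differ more than 3-fold between the acceptors, as at 392 of 19476 events with reads on both. At *Brd3* the rise of 12.1 PSI was 0.447 PSI in the raw reads and 6.26 without shSCR replicate 1, and at *Snapc4* the rise of 13.5 was 1.55 in the raw reads and 8.03 without that library. At *Nsd3* the rise of 18.1 for UL1 was 2.38 in the raw reads, 36.2 without shSCR replicate 1 and 0 without shSCR replicate 2. *Irak1*, encoding a kinase of interleukin-1 signalling, had 21.7 and 20.2% in shSCR, outside the 0 to 9.60% of the other 16 libraries, and fell by 16 PSI for CPSF3 and by 15.1 for UL1. In the raw reads it fell by 4.17 PSI for CPSF3 (adjusted p = 0.0254) and fell by 3.97 for UL1, where the call was lost (adjusted p = 0.0722). Without shSCR replicate 1 neither call held (adjusted p = 0.0551 and 0.0938). *Rpl29* rose by 25.8 PSI for CPSF3 (adjusted p = 0.0401) from 58.8 and 45.5% in shSCR to between 54.8 and 95.5%, which was below Empty (97.9 and 97.7%, adjusted p = 0.00215). In the raw reads the rise was 9.68 PSI (adjusted p = 0.0259), and the call was lost without shSCR replicate 1 (32.4 PSI, adjusted p = 0.118) and without replicate 2 (19.1 PSI, adjusted p = 0.267).

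Of the 20 events named for CPSF3, *Grk6*, *Top2a*, *Ppcdc* and *Cenpc1* passed with every library left out in turn, and of the 18 for UL1 *Grk6* did. Fibroblast markers summed to 22427 to 38981 scaled CPM in the 8 knockdown libraries and epithelial markers to 31.7 to 221, so that the first lay above and the second below the sums in shSCR. The part of the cell mixture in these changes was not tested. Of the 56 events past the rule in reprogramming of the overexpression dataset, which shares no library with the knockdowns, 40 had a difference of the opposite sign in CPSF3 and 37 in UL1, with 28.6% and 33.9% of the same sign, against 22.8% and 25.6% over all events.

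**Figure D4:**
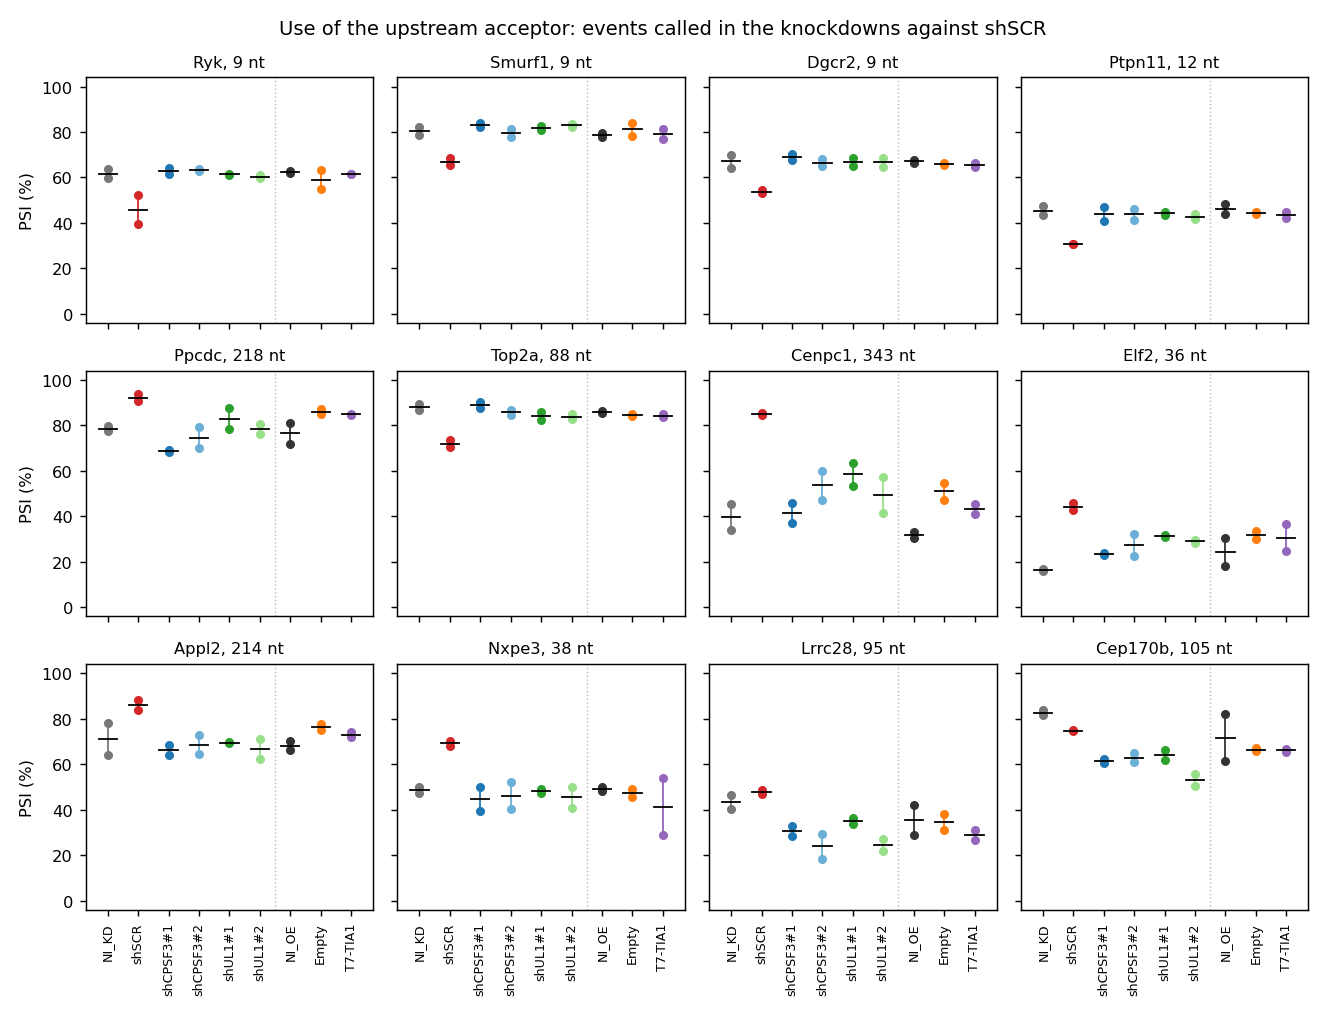
PSI (percent) of 12 events in each of the 18 libraries, by group, where NI_KD and NI_OE are the uninfected cells of each dataset, with a bar at each group mean. At *Ptpn11* the shSCR libraries stand at 30.8 and 30.7% below all others, and at *Cep170b* they do not stand alone.

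**Figure D5:**
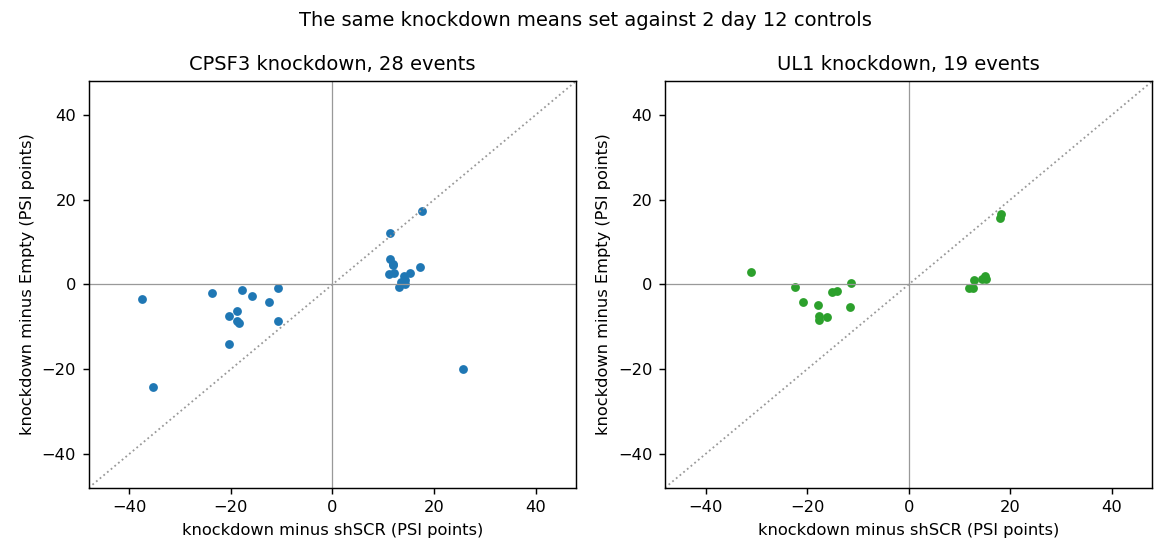
Difference of mean PSI of the knockdown libraries from Empty (vertical axis) against their difference from shSCR (horizontal axis), one point per event called by at least 10 PSI, for CPSF3 and UL1, with a dotted line where both differences are equal. The events were chosen by their position on the horizontal axis, all at 10 PSI or more from 0, and the median sizes were 14.8 and 15.3 PSI against shSCR and 4.14 and 1.99 PSI against Empty.

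Overexpression of TIA1 was read from T7-TIA1 against Empty. *Tia1* was at 85.6 and 77 scaled CPM in Empty and at 613 and 469 in T7-TIA1, higher by 2.71 on the log2 scale, which was not called in the fit of all genes (limma, adjusted p = 0.256). By the rule 24 events passed, 7 higher and 17 lower, 0.100% against 0.232% of all covered events. The read-level test called 0 of 3811 by limma, against 0.0725% of all tested events, with 146 at an unadjusted p under 0.05 and a smallest adjusted p of 0.214. The largest differences past the rule are therefore values only. *Tma7*, with a 4-nt segment, had 53.8 and 40.5% in Empty and 75 and 64.3% in T7-TIA1, and the other groups ranged from 55.7 to 86.4%, so that Empty was the group that stood low. *Carf* had 58.7 and 35.2% in Empty and 22 and 25% in T7-TIA1 at 105 nt. The difference of -23.4 PSI was -11.7 without Empty replicate 1 and -35.2 without Empty replicate 2. *Rnf14*, *Mul1*, *Phf20l1* and *Snx13* differed by -18.7, -17.5, 17.2 and 13.9 PSI on as few as 15 reads, and the last 3 by -11.4 without Empty replicate 2, 11.0 without Empty replicate 1 and 8.95 without T7-TIA1 replicate 2.

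The expression of genes known to act at 3′ splice sites was read from the same libraries. Of a list of 37 such genes, 36 were in the expression tables. In reprogramming 9 changed in the knockdown dataset (6 higher, 3 lower) and 7 in the overexpression dataset, all higher, where 44% and 46.2% of all genes did. With *Cpsf3* knocked down, 4 were lower, *Rbm39*, *Prpf18*, *Dhx35* and *Tra2a*, and with *Hnrnpul1* knocked down *Dhx35* and *Tra2a*, where 25.4% and 10.1% of all genes changed against the same shSCR libraries. These counts moved with single libraries. Without either shSCR library 1 gene was left for CPSF3, and 2 without shCPSF3#1 replicate 2 or shCPSF3#2 replicate 1. For UL1, 1 gene was left without shUL1#1 replicate 2 and 0 without any other of the 6 libraries. In reprogramming 4 were left in the knockdown dataset without either NI library, and in the overexpression dataset 1 without either Empty library, against 16 and 15 without NI replicate 1 and 2. A replicate block in the fit gave 17 in reprogramming of the knockdown dataset (8 higher, 9 lower), so the split between directions changed, 5 in the overexpression dataset, all higher, 8 for CPSF3 (1 higher, 7 lower), 4 for UL1, all lower, and 0 for TIA1. *Rbm39* is related to U2AF, PRPF18 acts in the second step, and *Tra2a* encodes a splicing activator of the SR family. With T7-TIA1 0 changed by limma, with 0 of the list at an unadjusted p under 0.05 and 0 of 9472 genes called in all, 382 at an unadjusted p under 0.05. The list genes and *Cpsf3*, *Hnrnpul1*, *Tia1* and *Tial1* themselves held 129 of the events in 37 genes, of which 4 used both acceptors: *U2af1l4* (25 nt, mean PSI 80.3%), *Sf3b1* (4 nt, 93.7%), *Tial1* (51 nt, 7.70%) and *Sf3b3* (129 nt, 5.10%). None passed the rule in any comparison, and 1 passed the test, *Dhx15*, encoding a helicase, at 8 nt with a fall of 2.30 PSI in the knockdown dataset (adjusted p = 4.62e-04).

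The events past the rule in any comparison were counted by the families to which their symbols assign the host genes. Mitochondrial genes held 6 of 243 events (2.47%), *Chchd7* and *Cox18* among them, translation genes 3 of 223 (1.35%), *Eif3h* and *Rpl29* among them, and chromatin genes 6 of 599 (1.00%), with 0.761% over all events. Ubiquitin genes held 8 of 886 (0.903%), trafficking genes 5 of 596 (0.839%), RNA processing genes 3 of 670 (0.448%), and cytoskeleton and adhesion genes 3 of 950 (0.316%). These are counts, with no test.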

How the data were processed

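Poly(A) RNA of 18 libraries, 2 in each of 9 groups, was sequenced from stranded libraries. The authors deposited a splicing table made with *vast-tools* in strand-specific mode on mm10, with PSI in percent and a deposited quality text (unit: other) that holds the raw and mappability-corrected read counts of each acceptor. They also deposited expression tables made with STAR 2.7.1a and edgeR 3.16.5, in scaled CPM (a normalised signal), which the authors had filtered for level and variation. No table of the authors' own comparisons was used. The days are those of the titles. The time label of shUL1#2 and of NI in the overexpression dataset names the other day.

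Events were kept if their type was Alt3 with 2 acceptors, their distance was above 0 and not 3 nt, and their coverage score was not N in any library. The members, gene lists and tests were chosen with earlier results of these data known. The study's pairwise rule for reprogramming time courses and for day 12 against day 0 (at least 10 PSI between means, at least 5 PSI between the libraries of the arms) was applied to PSI in all 5 comparisons, with both shRNAs pooled. The study's own definitions of CPSF3-, UL1- and TIA1-dependent events were not used. The read-level test was limma 3.58.1 (R 4.3.3, robust, two-sided) on log2((upstream + 1)/(downstream + 1)) corrected reads, weighted by 1/(counting variance + 0.05), in 1 fit per dataset, with Benjamini-Hochberg adjustment over all events fitted. Events entered the fit with at least 10 corrected reads on each acceptor, summed over the libraries of the dataset and not in each library. Expression was tested by limma on log2(value + 1). On simulated reads the CPSF3 comparison gave more false calls than its nominal level. The reprogramming and UL1 comparisons were not simulated. Named events were, in each comparison, the 10 largest rises and 10 largest falls of at least 10 PSI with an adjusted p under 0.05, for TIA1 the 3 largest of each past the rule, events in the 3′ splice site genes and targets, and the best covered event with a mean PSI of 25 to 75% in each distance class. Other events are named as chosen after their values were seen (*Zmat2*, *Nsd1*, *Banp*, *Gzf1*). Sequences and annotation came from GENCODE M21. Intronic sequence was not analysed here. Of the named events, 1 is not reported here. Alternatives were the PSI scale, raw reads, the read minimum, the coverage score, the limits of the rule, the groups in the fit, the replicate block, Empty as control and each library left out. Python 3.11.15, NumPy 2.4.6 and pandas 2.3.3 were used. Depth on these events was 10993565 to 13250069 raw reads per library, and junction reads carry no molecular identifiers.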

Additional observations from a re-analysis of the deposited data

How the results depend on the processing

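With a minimum difference of 15 PSI the rule called 56 and 28 events in reprogramming of the knockdown and overexpression datasets, 20 for CPSF3, 15 for UL1 and 6 for TIA1. With no minimum gap between libraries it called 94 in reprogramming of the overexpression dataset, 84 for CPSF3, 77 for UL1 and 39 for TIA1, and with scores of LOW or better 12 for TIA1. The test called 98 events in reprogramming of the knockdown dataset when only the compared groups entered the fit, 69 on PSI in percent and 827 with no minimum of reads. In the overexpression dataset it called 0 on PSI in percent and 0 with no minimum of reads. For CPSF3 it called 26 on PSI in percent and 13 with Empty as the control, and for UL1 21, 12 and, with no minimum of reads, 15. The median PSI at 4 to 6 nt was 90.9% with scores of LOW or better. Leaving out a library at a time, the rule called 150 to 184 and 77 to 137 events in reprogramming of the knockdown and overexpression datasets, 44 to 97 for CPSF3, 41 to 92 for UL1 and 54 to 75 for TIA1, and the test 39 to 120, 2 to 26, 26 to 79, 11 to 44 and 0. The counts of changed 3′ splice site genes were then 4 to 8, 1 to 16, 1 to 4, 0 to 1 and 0. Of 368 values of named calls with a library left out, 173 missed the threshold and 0 changed sign. Raw reads in the test lost 4 of 73 named calls. The cause of these differences was not tested. Low depth limits the events with 15 to 50 reads, such as *Eif3h* and *Mul1*.

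The replicate numbers are not stated to mark a shared culture or batch, and same-numbered libraries correlated weakly, with r of 0.103 to 0.192 between shSCR and the knockdown groups, 0.119 to 0.254 between knockdown groups, -0.0256 to 0.0204 for NI of the knockdown dataset, and 0.0238 to 0.113 in the overexpression dataset. With a replicate block in the fit, the test called 47 events in reprogramming of the overexpression dataset, the lists of changed 3′ splice site genes held 17 in reprogramming of the knockdown dataset, 8 for CPSF3 and 4 for UL1, and 1 of 73 named calls was lost, *Nsd3* for UL1 (adjusted p = 0.0833).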
